A study of Mus musculus with 6 samples.

Results

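The macrophage marker genes described here are Cx3cr1, C1qa, C1qb, C1qc, Lyz2, Cd14, Msr1, Spi1, Adgre1 and Cd68. They are 10 of the 15634 genes listed for these cultures, taken by gene symbol, and each matched 1 gene. The series compared bone marrow-derived mesenchymal stem cells (MSCs, adherent stromal cells) from wild-type C57BL/6J mice with and without the inflammatory cytokine TNF-α. The TNF group held 3 libraries of MSCs given TNF-α at 10 ng/mL for 24 h, and the Control group held 3 libraries of MSCs left unstimulated. Both groups shared the genotype and the medium, α-MEM to which 15% fetal bovine serum was added. Whether the replicates are separate animals, pools or dishes is not in the labels, so p-values measure only the spread between these libraries.

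Macrophages are phagocytes of the myeloid lineage that adhere to plastic, and they can persist in primary cultures of marrow stroma. Their identity depends on the transcription factor PU.1, and they carry receptors for the growth factor CSF1. They sense and engulf microbes and debris through pattern-recognition and scavenger receptors, digest them in lysosomes, and are a main source of the complement protein C1q. TNF-α acts on stromal cells and macrophages alike. Bulk RNA joins the transcripts of every cell in a dish, so fewer cells of a type and less RNA per cell cannot be told apart.

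Transcripts of all 10 genes were present in every library, with counts between 208 and 135912. In TNF cultures Cx3cr1, C1qa, C1qb, C1qc and Cd68 were lower, while Msr1, Cd14 and Spi1 were higher. Lyz2 and Adgre1 lay below Control in each TNF library but did not pass the test. The genes therefore did not move as a block, and their changes ran from 3.87-fold lower for Cx3cr1 to 2.38-fold higher for Msr1. By edgeR's quasi-likelihood test, with p adjusted by Benjamini-Hochberg over 15547 tested genes and called under 0.05, 8 of the 10 differed, and so did 32.4% of all tested genes. Lower in TNF were 5 of the 10 and 16.4% of all genes, and higher were 3 of the 10 and 16% of all genes. CPM values here are counts scaled to library size after its adjustment by edgeR's TMM scaling factors. In CPM the groups did not overlap for any of the 10, nor for 48.7% of all genes. In that measure 7 of the 10 lay lower, as did 24.7% of all genes, and 3 lay higher, as did 24% of all genes. In TPM (a length-scaled transcript share) the groups also did not overlap for any of the 10, nor for 40.2% of all tested genes, with 7 of the 10 and 25.2% of all genes lower and 3 of the 10 and 15% of all genes higher. The median log2 fold change was -0.66 over the 10 genes and -0.0046 over all tested genes.

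Total counts ran from 45629973 to 77142418 per library. One library in each group stood apart. Reads of 18S ribosomal RNA made up 19.4% of the counts in TNF library 2, against 1.10% to 3.55% in the other libraries, and this lowers every other TPM value in that library. In Control library 2, 9 of the 10 marker genes had their highest Control value in CPM, and so did 40.6% of all tested genes. With both of these libraries left out, 9 of the 10 genes were called, Lyz2 being the added one, and so were 33.6% of all tested genes. Of these 3 were higher and 6 lower, against 17.4% and 16.1% of all tested genes.

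**Figure D1:**
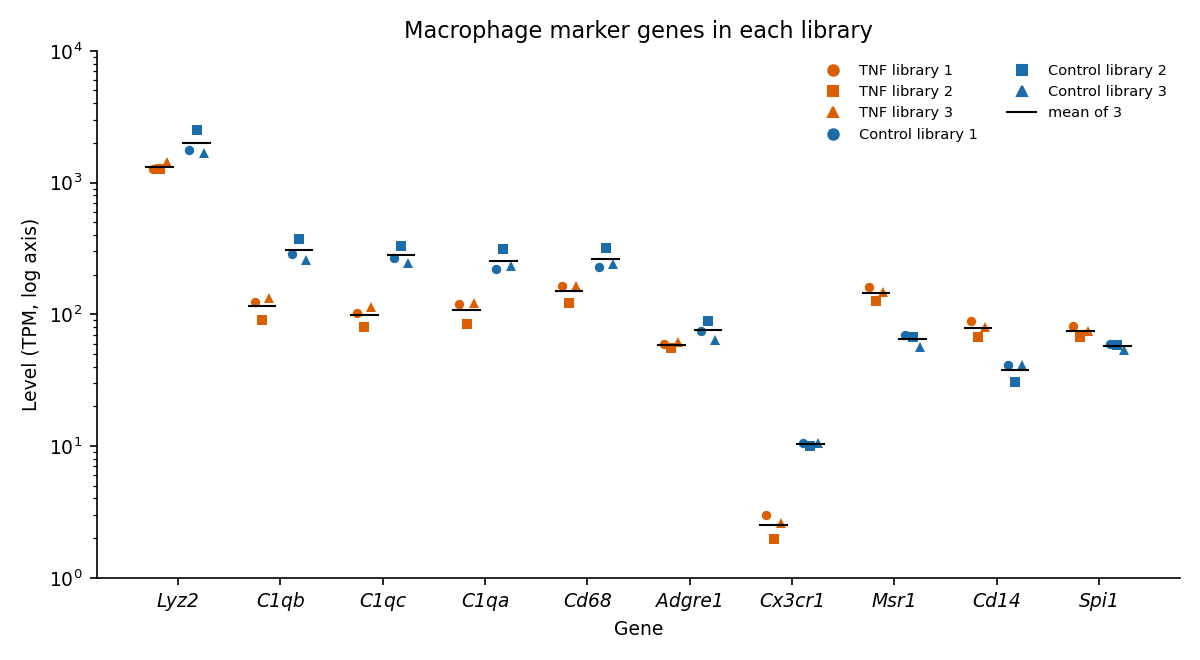
Levels of the 10 marker genes in TPM on a log axis, 1 point per library and a line at the mean of 3, with TNF left of Control for each gene. The groups do not overlap for any of the 10 genes, nor for 40.2% of all tested genes, and Lyz2 and Cx3cr1 lie at opposite ends of the range of the 10.

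Levels between genes were compared in TPM, which is scaled to gene length. Lyz2, the lysozyme of myeloid cells that cuts bacterial cell walls, was the most abundant of the 10. It had 1269, 1263 and 1431 TPM in TNF libraries 1, 2 and 3, and 1771, 2500 and 1688 TPM in Control libraries 1, 2 and 3. By mean TPM it ranked 102 of 15634 genes in TNF and 71 in Control, and it made up 58.4% to 64.6% of the summed TPM of the 10 genes in every library. Cx3cr1 was the least abundant in all libraries. Ordered by mean TPM over 6 libraries, the others were C1qb, Cd68, C1qc, C1qa, Msr1, Adgre1, Spi1 and Cd14. Only Lyz2 at the top and Cx3cr1 at the bottom were separated from their neighbour in all 6 libraries. Every other pair of neighbours changed places in at least 2 libraries. Msr1 stood at position 3 in TNF and 7 in Control, and C1qc at position 6 in TNF and 3 in Control.

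Cx3cr1 had the largest fold change of the 10 markers. It encodes the receptor for fractalkine, a chemokine that is anchored to the membrane until it is shed, and is known from monocytes, microglia and other tissue macrophages. Cx3cr1 had 2.98, 1.97 and 2.61 TPM in TNF libraries 1 to 3, and 10.5, 10.1 and 10.5 TPM in Control libraries 1 to 3. The 3 Control values were almost equal, and every TNF value was below 3. The log2 fold change was -1.95 ± 0.13 (SE, n = 3 each), with an edgeR adjusted p of 9.23e-06, and it stayed between -2.07 and -1.83 when single libraries were left out. Its ligand gene Cx3cl1 rose to 159 ± 20.1 TPM in TNF, against 41.0 ± 0.922 TPM in Control (SD, n = 3 each). Of the proteases that shed the ligand, Adam17 rose, with 48.8 ± 3.44 TPM in TNF and 24.4 ± 1.62 TPM in Control. Adam10 had 33.8 ± 3.34 TPM in TNF and 45.4 ± 9.85 TPM in Control and was not called (adjusted p = 0.167).

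Msr1 encodes the class A scavenger receptor, which takes up modified lipoproteins and binds bacteria. It had 160, 126 and 147 TPM in TNF libraries 1 to 3, and 69.3, 67.7 and 56.3 TPM in Control libraries 1 to 3. The lowest TNF value was well above the highest Control value, and the CPM values of the TNF libraries were nearly equal at 151, 154 and 153. The log2 fold change was 1.25 ± 0.12 (SE, n = 3 each; edgeR adjusted p = 8.37e-05).

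Cd14 encodes the co-receptor that hands bacterial lipopolysaccharide to Toll-like receptor 4. It had 88.5, 66.8 and 79.5 TPM in TNF libraries 1 to 3, and 41.2, 30.9 and 41.2 TPM in Control libraries 1 to 3. Here Control library 2 was the lowest of its group, the reverse of its place for the other 9 genes in CPM. Cd14 rose by 1.13 ± 0.10 on the log2 scale (SE, n = 3 each; edgeR adjusted p = 4.58e-05).

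Adgre1 encodes F4/80, an adhesion receptor widely used to stain mouse macrophages. It had 59.1, 55.5 and 61.5 TPM in TNF libraries 1 to 3, and 74.8, 88.7 and 64.3 TPM in Control libraries 1 to 3. The groups did not overlap, but the gap between TNF library 3 and Control library 3 was small. Its log2 fold change of -0.35 ± 0.13 was not called (edgeR adjusted p = 0.0784). Without Control library 3 it was -0.45 and was called (adjusted p = 0.0367), and without Control library 2 it was -0.18.

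The 3 chains of C1q, the recognition unit of the classical complement pathway, are encoded by neighbouring genes on chromosome 4, with C1qc between C1qb and C1qa. C1qa had 120, 83.7 and 122 TPM in TNF libraries 1 to 3, and 221, 311 and 234 TPM in Control libraries 1 to 3. C1qb had 124, 89.7 and 132 TPM in TNF libraries 1 to 3, and 287, 371 and 258 TPM in Control libraries 1 to 3. C1qc had 102, 80.0 and 113 TPM in TNF libraries 1 to 3, and 268, 331 and 243 TPM in Control libraries 1 to 3. For all 3 genes TNF library 2 was the lowest and Control library 2 the highest, and the groups lay far apart. The log2 fold changes were -1.19 ± 0.18 for C1qa, -1.35 ± 0.18 for C1qb and -1.46 ± 0.16 for C1qc (SE, n = 3 each), with edgeR adjusted p of 0.00128, 0.000600 and 0.000200. Without Control library 2 they were nearer to 0, at -0.95, -1.11 and -1.25, and all 3 were still called.

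The proportions of the chains shifted little beside the fall itself. The ratio of C1qa to C1qc in TPM was 1.10 ± 0.0670 in TNF and 0.908 ± 0.0739 in Control (SD, n = 3 each), 1.21-fold higher in TNF. C1qa to C1qb was 0.938 ± 0.0230 in TNF and 0.838 ± 0.0685 in Control, and C1qb to C1qc was 1.17 ± 0.0490 in TNF and 1.08 ± 0.0326 in Control. An exact two-sided permutation test gave p = 0.1 for each of these ratios, the smallest value that 3 against 3 libraries allow, and 0.1 after adjustment over 13 ratios. The values of the last ratio nearly met, at 1.12 in both TNF library 2 and Control library 2.

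PU.1 is known to bind a purine-rich element called the PU box, so the RefSeq promoters (build GRCm38.p6) of the markers were searched for the letters GAGGAA on both strands. Promoter entries were used for 5 of the 10 genes, namely Cx3cr1, C1qb, C1qc, Lyz2 and Cd68, over the 250 bases before the transcript start. C1qb, C1qc and Cd68 each held 1 match, and 23.3% of all 32851 promoter windows held at least 1. The TATA box letters TATAAA, searched in the same way, were in none of the 5 windows and in 12.4% of all windows. The windows with a match are shown, 5′ to 3′ on the gene's strand, with the match in capitals.
C1qb promoter, chr4:136886201-136886450, minus strand: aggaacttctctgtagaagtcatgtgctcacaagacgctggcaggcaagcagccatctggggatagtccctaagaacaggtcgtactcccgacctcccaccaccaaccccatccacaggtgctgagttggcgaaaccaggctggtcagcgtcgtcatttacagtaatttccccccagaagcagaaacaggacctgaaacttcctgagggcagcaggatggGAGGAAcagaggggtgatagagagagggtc
C1qc promoter, chr4:136892915-136893164, minus strand: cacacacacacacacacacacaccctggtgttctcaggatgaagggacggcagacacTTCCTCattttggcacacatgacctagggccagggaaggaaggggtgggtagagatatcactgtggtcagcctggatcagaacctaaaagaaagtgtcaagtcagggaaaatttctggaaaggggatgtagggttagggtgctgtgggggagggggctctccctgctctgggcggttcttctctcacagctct
Cd68 promoter, chr11:69666171-69666420, minus strand: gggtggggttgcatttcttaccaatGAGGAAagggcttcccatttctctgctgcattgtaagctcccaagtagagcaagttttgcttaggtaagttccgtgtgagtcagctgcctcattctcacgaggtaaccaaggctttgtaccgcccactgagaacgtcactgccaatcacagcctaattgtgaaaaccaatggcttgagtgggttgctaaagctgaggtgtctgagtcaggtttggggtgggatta

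The match began 30 bases before the transcript start in C1qb and 225 bases before it in Cd68, on the gene's strand. In C1qc it lay 193 bases before the start on the opposite strand, so that its letters read as the reverse complement. A match of this kind describes the letters of the window and is not a measured binding site.

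Spi1 encodes PU.1 itself, the ETS-family transcription factor required for macrophage development. It had 82.2, 67.7 and 74.4 TPM in TNF libraries 1 to 3, and 59.7, 58.4 and 53.5 TPM in Control libraries 1 to 3. The TNF values were all higher, by less than for Msr1 or Cd14, and the CPM values were tight in each group, at 59.1 to 62.2 in TNF and 43.5 to 47.0 in Control. Spi1 rose by 0.42 ± 0.07 on the log2 scale (SE, n = 3 each; edgeR adjusted p = 0.00248). With library totals in place of TMM scaling factors the value was 0.34 and was not called (adjusted p = 0.0799). That scaling called 2 of the 10 markers higher, against 10.4% of all genes, and 7 lower, against 16.5%, with 26.9% of all genes called in either direction. Spi1 was also not called in TPM by limma (adjusted p of 0.0556 to 0.0636).

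Of 15 measured partners and antagonists of PU.1, 4 rose and 4 fell, against 16% and 16.4% of all tested genes. Spib, the closest relative of PU.1, had 226, 193 and 300 counts in TNF libraries 1 to 3, and 0, 1 and 1 counts in Control libraries 1 to 3. Its ratio of TNF to Control was 449, with an exact 95% interval of 124 to 3715 that covers counting error only. Egr2, a zinc-finger factor, had 14.9 ± 0.499 TPM in TNF and 4.46 ± 0.388 TPM in Control. Cebpb rose and Cebpa fell, with log2 fold changes of 1.23 and -1.01, and Ets1 rose by 0.52. Maf, a transcription factor known to hold macrophages in a mature state, fell to 53.5 ± 7.70 TPM in TNF, against 178 ± 49.7 TPM in Control (SD, n = 3 each). Maf had 202.5, 120.7 and 210.4 TPM in Control libraries 1 to 3, and so, like Cd14, was lowest in Control library 2. Which cells held its transcripts was not tested. Irf8, a partner of PU.1, had 11.4 ± 0.626 TPM in TNF and 11.8 ± 1.28 TPM in Control and was not called. Fli1 fell by 0.51, and Egr1 fell by 0.33 but was not called without Control library 1 (adjusted p = 0.0734).

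Cd68 encodes macrosialin, a glycoprotein of late endosomes and lysosomes. It had 164, 121 and 163 TPM in TNF libraries 1 to 3, and 227, 321 and 241 TPM in Control libraries 1 to 3. All TNF values were below all Control values, and Control library 2 was again the highest. Cd68 fell by 0.78 ± 0.17 on the log2 scale (SE, n = 3 each; edgeR adjusted p = 0.00906), and by 0.46 with Control library 2 and TNF library 2 both left out (adjusted p = 0.00165). Lyz2, whose levels are given above, had a log2 fold change of -0.53 ± 0.20 that was not called (edgeR adjusted p = 0.0768). Without Control library 2 it was -0.25. With Control library 2 and TNF library 2 both left out it was -0.28 and was called (adjusted p = 0.0433), as it was by DESeq2 (-0.53, adjusted p = 0.0197). Its neighbour Lyz1, a close paralog with which reads could be shared, had 0 to 11 counts in TNF libraries and 7 to 33 counts in Control libraries.

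**Figure D2:**
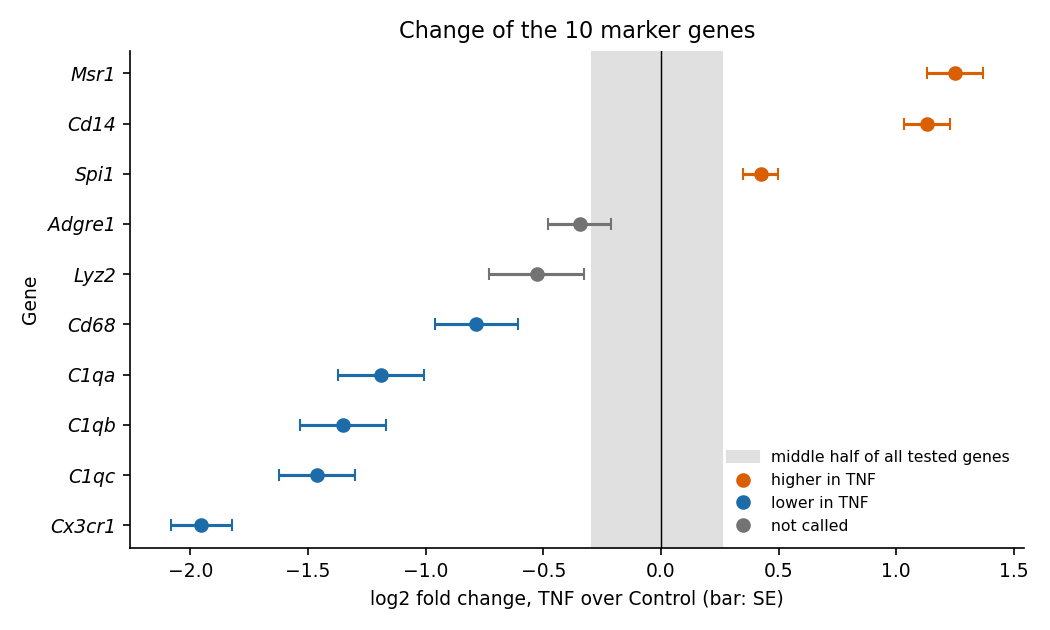
Log2 fold change of TNF over Control for each marker gene from edgeR, with bars for the SE and a grey band for the interquartile range of all tested genes. Msr1, Cd14 and Spi1 lie right of the band, and Cx3cr1 and the C1q chains lie farthest left.

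Lysosome genes other than Cd68 numbered 24, of which 10 fell and 2 rose, against 16.4% and 16% of all tested genes. The median log2 fold change of the 24 was -0.37. Ctsd, the protease cathepsin D, fell to 1388 ± 184 TPM in TNF, against 2592 ± 310 TPM in Control, and Hexa, a lysosomal glycosidase, fell by 0.72 on the log2 scale. The higher genes were Lipa and Npc1. These counts depended on single libraries. Leaving out TNF library 1 gave 3 lower and 0 higher genes by edgeR, leaving out TNF library 3 gave 6 lower and 2 higher, and 1 gene was higher without TNF library 2, Control library 1 or Control library 3.

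The Control libraries differed among themselves in a gene-specific way. In log2 CPM, Control library 2 lay above the mean of the other 2 Control libraries by 0.71 for Lyz2, 0.63 for C1qa, 0.62 for C1qb, 0.62 for Cd68 and 0.55 for C1qc. The same difference was 0.45 for Adgre1, 0.37 for Msr1, 0.10 for Cx3cr1, 0.08 for Spi1 and -0.23 for Cd14. Genes with other uses showed it too. Control library 2 held the highest Control value for 18 of 23 genes common to leukocytes, 20 of 24 lysosome genes and 19 of 22 stromal markers. It did so for 40.6% of all tested genes, and for 44 of 54 other macrophage and monocyte genes. Mitochondrial transcripts made up 4.67% of the counts in that library and 2.72% to 3.26% in the others. The part of these differences in the results was not tested. In the TNF group the same difference of library 2 from the other 2 was -0.41 for Cx3cr1, -0.32 for C1qa, -0.30 for C1qb and 0.12 for Lyz2.

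To set the markers against the blood-lineage content of each dish, their TPM was divided by the summed TPM of 23 pan-leukocyte genes such as Ptprc, Laptm5, Tyrobp and Lcp1. That sum was 1317, 1097 and 1386 TPM in TNF libraries 1 to 3, and 1200, 1523 and 1135 TPM in Control libraries 1 to 3, so the groups overlapped. Relative to it the groups did not overlap for any of the 10 genes, nor for 30.4% of all tested genes, and each of the 10 kept its direction. On this scale 7 of the 10 and 18.4% of all genes lay lower, and 3 of the 10 and 12% of all genes lay higher. Cx3cr1 had a ratio of 0.00198 ± 0.000249 in TNF and 0.00821 ± 0.00142 in Control (SD, n = 3 each), 4.12-fold lower in TNF. C1qc had a ratio of 0.0772 ± 0.00422 in TNF and 0.218 ± 0.00465 in Control.

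The ratio of Lyz2 was 0.964, 1.15 and 1.03 in TNF libraries 1 to 3, and 1.48, 1.64 and 1.49 in Control libraries 1 to 3. On this scale Control library 2 lay close to the others for Lyz2. The log2 difference of Lyz2 was -0.55, with a range of -0.62 to -0.49 over repeats without single libraries. For Cd14, Control library 2 had 0.0203, against 0.0343 and 0.0363 in Control libraries 1 and 3. The log2 difference of Cd14 ran from 0.805 to 1.23 over such repeats. Control library 2 was also the lowest of its group for Cx3cr1, Msr1 and Spi1. For C1qa, C1qc, Adgre1 and Cd68 it lay between the others, and for C1qb it was the highest. Msr1 was 2.27-fold and Cd14 2.10-fold higher in TNF than in Control on this scale, and Spi1 1.32-fold higher. Each ratio gave p = 0.1 by the exact two-sided permutation test, which 3 against 3 libraries cannot go below, and 0.1 adjusted over 13 ratios.

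**Figure D3:**
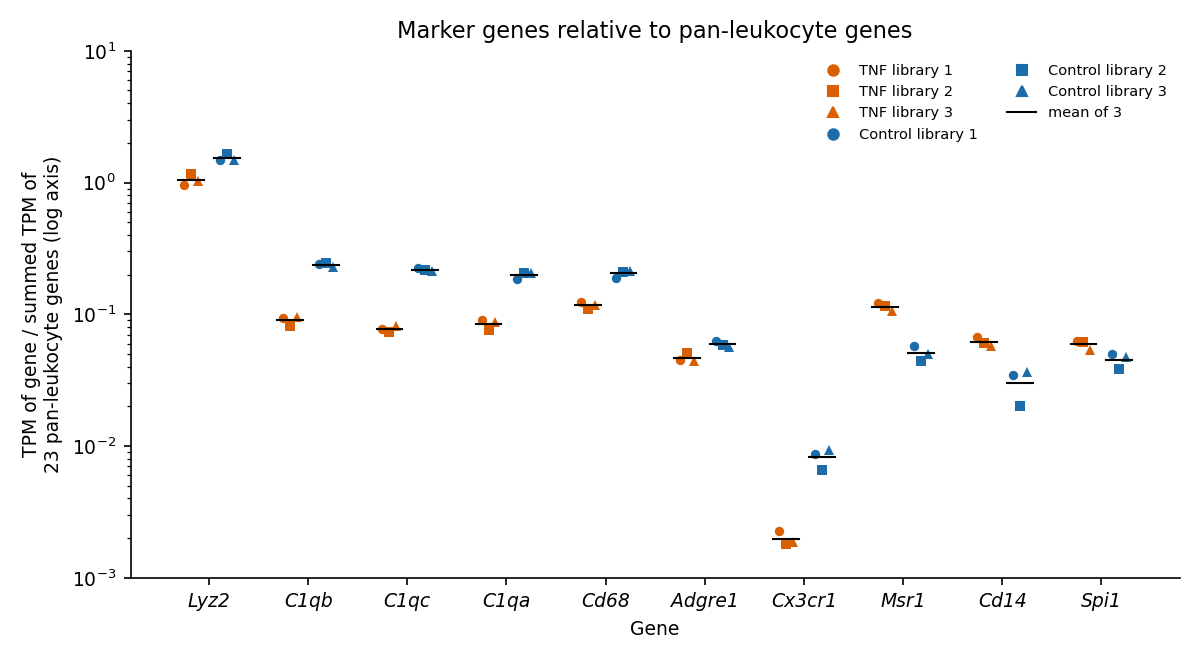
TPM of each marker gene divided by the summed TPM of 23 pan-leukocyte genes, on a log axis, 1 point per library and a line at the mean of 3, with TNF left of Control. The groups do not overlap for any of the 10 genes, nor for 30.4% of all tested genes, and the C1q chains are tight within the Control group.

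The divisor was itself not constant. Of the 23 pan-leukocyte genes 7 rose and 3 fell, against 16% and 16.4% of all tested genes. The median log2 fold change of the 23 was 0.16. Cd53, a tetraspanin, had 73.7 ± 10.7 TPM in TNF and 29.7 ± 8.07 TPM in Control, and Hcls1, an actin regulator of blood cells, 88.2 ± 12.2 TPM in TNF and 43.5 ± 3.52 TPM in Control (SD, n = 3 each). The lower genes were Laptm5, Nckap1l and Inpp5d. Laptm5 was not called without TNF library 1, 2 or 3, nor Nckap1l without TNF library 1 or 2. Of the higher genes, Cd48 was not called when any single library was left out (edgeR adjusted p up to 0.111). The lower count was 1 without TNF library 1 or TNF library 2. The higher count was 11 without Control library 2. Ptprc, which encodes CD45, had 13.4 ± 0.387 TPM in TNF and 12.1 ± 1.32 TPM in Control and was not called (edgeR adjusted p = 0.233).

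A wider list of macrophage and monocyte genes went both ways as the 10 did. Of its 60 genes, Cd163, Vsig4, Timd4, Lyve1, Ccr2 and Ly6c2 had no values. Of 54 measured genes 16 rose and 22 fell, against 16% and 16.4% of all tested genes. The median log2 fold change of the 54 was -0.01. Clec4e, the C-type lectin Mincle, had 72.8 ± 7.77 TPM in TNF and 1.81 ± 0.320 TPM in Control, and Clec7a, the beta-glucan receptor dectin-1, 57.4 ± 8.74 TPM in TNF and 14.3 ± 1.56 TPM in Control (SD, n = 3 each). Tmem119, known from microglia and also from osteoblasts, fell to 14.4 ± 2.57 TPM in TNF, against 52.2 ± 2.52 TPM in Control. Further genes of this list, chosen after their values were seen, were Marco, a scavenger receptor of the same class as Msr1 (log2 fold change 1.64), the iron transporter Slc11a1 (1.02), the mannose receptor Mrc1 (-1.33), the folate receptor Folr2 (-1.72) and the secreted Cd5l (-2.80). The summed TPM of the list was 2663, 2201 and 2775 in TNF libraries 1 to 3, and 2664, 2766 and 2482 in Control libraries 1 to 3. These sums overlapped, while those of the 10 genes did not, at 2172, 1955 and 2326 TPM in TNF libraries and 3029, 4089 and 2890 TPM in Control libraries. The sums of the 10 consisted mostly of Lyz2, at 58.4% to 64.6%, and of the C1q chains. The C1q chains held 346, 253 and 367 TPM in TNF libraries 1 to 3. In Control libraries 1 to 3 they held 776, 1013 and 735 TPM.

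**Figure D4:**
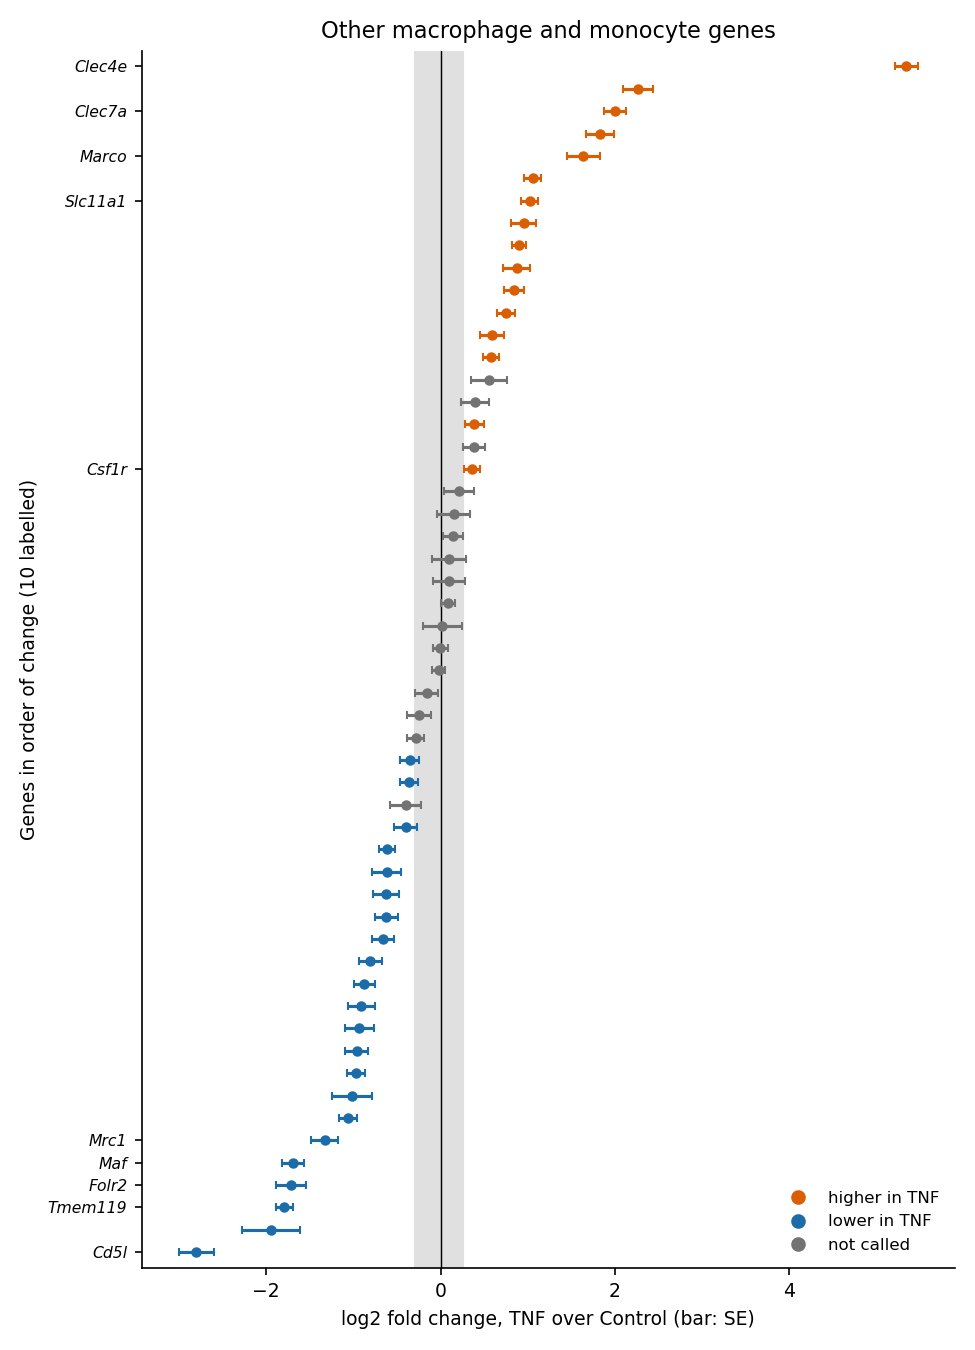
Log2 fold change of TNF over Control with its SE for 54 other macrophage and monocyte genes, sorted, from edgeR, with some of the genes named in the text labelled. The grey band is the interquartile range of all tested genes, and the list spreads to both sides of it from Clec4e at 5.34 to Cd5l at -2.80.

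Pathways around single markers showed mixed changes as well. Of 24 genes of the Toll-like receptor and CD14 pathway 10 were higher and 5 lower, against 16% and 16.4% of all tested genes. Tlr2, which also works with CD14, had 131 ± 8.43 TPM in TNF and 17.6 ± 0.429 TPM in Control. Lbp, which delivers lipopolysaccharide to CD14, had 68.4 ± 4.58 TPM in TNF and 13.2 ± 0.567 TPM in Control. The inhibitory kinase-like Irak3 rose by 1.79 on the log2 scale. Ly96, the partner of TLR4 on the cell surface, rose by 0.80, while Tlr4 had 10.9 ± 0.282 TPM in TNF and 9.86 ± 1.41 TPM in Control and was not called. The lower genes were Tlr5, Tlr8, Tlr9, Tlr13 and Ly86, of which Tlr5 was not called without TNF library 1, 2 or 3 or without Control library 1 or 3.

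Over all tested genes 16% rose and 16.4% fell. Of 17 measured scavenger receptors 5 rose, namely Msr1, Marco, Cxcl16, Olr1 and Ager, and 7 fell, among them Cd68 and Cd5l. Ager was not called without TNF library 2. Olr1 had few counts, with 35, 46 and 38 in TNF libraries 1 to 3, and 1, 2 and 0 in Control libraries 1 to 3. Its ratio of TNF to Control was 49.55, with an exact 95% interval of 16.55 to 243.7 that covers counting error only. Cxcl16, a chemokine that also binds oxidised lipoprotein, had 224 ± 36.4 TPM in TNF and 42.1 ± 2.63 TPM in Control. In the classical complement pathway 5 of 14 measured genes fell, namely the C1q chains, Cd93 and Masp1. The proteases that pair with C1q were not called, with C1ra at 125 ± 7.29 TPM in TNF and 148 ± 20.9 TPM in Control and C1s1 at 178 ± 6.14 TPM in TNF and 139 ± 14.3 TPM in Control. C3, Csmd1 and C2 rose, C2 not being called without TNF library 2, TNF library 3, Control library 1 or Control library 3. The higher count was 5 without Control library 2. C3, the central complement protein, had 48.1 ± 4.12 TPM in TNF and 2.04 ± 0.498 TPM in Control.

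All 5 measured genes of the CSF1 and CSF2 receptor axis rose, 2 of them ligands and 3 receptors, against 16% of all tested genes. Csf1 had 918 ± 64.2 TPM in TNF and 332 ± 20.3 TPM in Control, and the receptor chain Csf2rb 41.1 ± 5.97 TPM in TNF and 9.45 ± 1.65 TPM in Control (SD, n = 3 each). The other ligand, Il34, rose by 0.71 on the log2 scale and Csf2ra by 0.57. Csf1r, the CSF1 receptor of macrophages, had 191 ± 30.6 TPM in TNF and 164 ± 4.005 TPM in Control. Its log2 fold change of 0.36 was not called without TNF library 1, Control library 1 or Control library 3 (edgeR adjusted p up to 0.0971).

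Stromal markers were present beside the macrophage genes, with Col1a2, a chain of type I collagen, at 1912 ± 150 TPM in TNF and 3274 ± 61.6 TPM in Control, and Pdgfrb at 107 ± 7.32 TPM in TNF and 118 ± 5.17 TPM in Control. Lepr, a marker of marrow stroma, was at 0.758 ± 0.314 TPM in TNF and 0.284 ± 0.0723 TPM in Control. Of 22 stromal markers 5 rose and 7 fell, against 16% and 16.4% of all tested genes. Among the 22 were Vcam1, which rose by 3.07, and Mcam, which fell by 1.46. The summed TPM of the 22 was 6349, 5558 and 5959 in TNF libraries 1 to 3, and 8497, 9130 and 8035 in Control libraries 1 to 3. This sum was also lower in every TNF library, and its part in the results was not tested.

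Markers of other cell types were mostly low or without values here, apart from osteoclast markers and Pf4. Of 12 T and NK cell markers 2 had values, with a summed level of 0.290 to 0.646 TPM in TNF and 2.39 to 3.44 TPM in Control. Of 9 B cell markers only Ighm had a value, at 1.63 to 1.81 TPM in TNF and 3.32 to 3.68 TPM in Control. Of 14 neutrophil markers 6 had values, summing to 8.72 to 13.1 TPM in TNF and 3.32 to 4.07 TPM in Control. Of 11 dendritic cell markers 3 had values, summing to 5.59 to 6.19 TPM in TNF and 1.66 to 2.79 TPM in Control. For endothelial cells 3 of 9 markers had values, summing to under 1 TPM in each library. Osteoclast markers, 9 of 11, summed to 94.8 to 107 TPM in TNF and 101 to 113 TPM in Control. Erythroid and megakaryocyte markers, 5 of 12, summed to 153 to 220 TPM in TNF and 56.4 to 73.7 TPM in Control, nearly all of it Pf4. None of 7 mast cell markers had a value.

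The genes whose pattern over the 6 libraries was most like that of a marker were found by Pearson's r of log2 CPM among 10836 genes. They are given as a description without p, since 6 libraries in 2 groups make high values common. For Cx3cr1 they were Idh2, Rab3b and Tgfb3, with r between 0.998 and 0.999, and 718 genes exceeded 0.95. For the mean of the C1q chains they were Rcsd1, Ctsf and Srpx, with r of 0.9996 to 0.9998. For Lyz2 they were Pex26, Psap and Gtf3c1, with r of 0.994 to 0.997, and for Cd14 Foxs1, Mllt11 and Foxp4, with r of 0.999 to 0.9996. Psap, which encodes the lysosomal protein prosaposin, had 808 ± 26.8 TPM in TNF and 1209 ± 255 TPM in Control, and Rab3b 3.69 ± 0.830 TPM in TNF and 14.9 ± 0.202 TPM in Control (SD, n = 3 each).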

How the data were processed

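RNA of 6 MSC cultures was sequenced. Per the labels' protocols, total RNA was DNase-treated and the SMART-Seq Stranded Kit was used for the libraries. The submitters' processing notes list Trim Galore, STAR, StringTie, Salmon and build GRCm39, with no roles, versions or settings. The authors deposited expected counts as whole numbers without a gene column, titled normalized but named raw in the file headers. Totals differed between libraries, so they were used as counts. The authors also deposited TPM with gene symbols, summing to 1000000 per library. Each count was joined to the gene on the same line of the TPM file: all 260 zeros coincided, and the median SD of log2(count/TPM) over libraries was 0.0284, against 0.369 with lines moved by 1. The lowest value of the third-highest count of any listed gene was 10, so genes under that were not analysed here.

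The main test was edgeR 4.0.16 under R 4.3.3 on counts rounded to whole numbers, with filterByExpr, TMM factors, glmQLFit and a two-sided glmQLFTest for group, with Benjamini-Hochberg adjusted p under 0.05 as the threshold. Any SE is the absolute log2 fold change divided by the square root of F. On simulated counts for 15547 genes the procedure called 34.3% of 67 genes changed 1.5-fold, 77.6% of 67 changed 2-fold, 95.5% of 66 changed 4-fold and 0.0912% of 15347 unchanged genes. Far fewer genes changed there than were called in the data, and no simulated library was made to stand apart. These rates therefore need not hold for the data. Alternatives were other scalings, DESeq2 1.42.0, limma-voom 3.58.1, limma on log2(TPM + 1) or log2(TPM + 0.1), other filters, a threshold of 0.01, a replicate block and leaving out libraries.

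The 10 genes, the 18 other gene lists and the tests were chosen with earlier results of these data known. Named are the 10 genes, up to 3 called genes of a list by smallest adjusted p, members of counts of 5 or fewer, and 3 similar genes for each of Cx3cr1, the C1q mean, Lyz2 and Cd14 among genes of at least 5 CPM on average. For lists of other cell types only levels are given. Some genes that the rule would name are not reported here. Some genes were named after their values were seen, also where they are partners of a marker. Strandedness of the counting is not given in the sources used here.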

Additional observations from a re-analysis of the deposited data

How the results depend on the processing

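The fold changes of the 10 marker genes were compared with those under 19 alternative settings each, 190 values in all, and 0 reversed. The threshold of 0.01 is among these settings and repeats the main fold changes, so its values could not reverse. In 4 of the 190 values Spi1 was no longer called (library totals and the 3 fits of limma on log2 TPM). In 5 a gene became called, Lyz2 by DESeq2, with library totals and with Control library 2 and TNF library 2 both left out, and Adgre1 with library totals and without Control library 3. The cause was not tested. The 3 higher and 5 lower counts of marker genes stayed at 3 higher and 5 to 6 lower over repeats without single libraries.

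Over all tested genes 2489 were higher and 2550 lower. The higher count was 1612 with library totals, 1477 and 1470 by limma on log2(TPM + 1) and log2(TPM + 0.1), and 1356 with at least 1 TPM in 3 libraries. With a threshold of 0.01 there were 1587 higher and 1534 lower genes. With library totals 38.5% of calls were higher, against 49.4% with TMM factors, and the 10 genes then gave 2 higher and 7 lower. Pan-leukocyte genes gave 4 higher with library totals, 3 by limma on log2(TPM + 1) and also 3 with the pseudocount of 0.1, and 11 with Control library 2 and TNF library 2 both left out. Without single libraries they gave 6 to 11 higher and 1 to 3 lower. At 0.01 the lower count was 0 by edgeR, with 3 at an unadjusted p under 0.05 and, at 0.01, 3 by DESeq2 and 0 by limma-voom. The 20 recomputed levels and 88 recomputed ratios kept their direction.

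Deviations of same-numbered libraries from their group means correlated at -0.0125, -0.304 and -0.222. Those of differently numbered libraries correlated at -0.23 to 0.36. Deviations within a group depend on each other, so this check cannot decide whether replicate numbers pair the samples. With the replicate block the marker genes gave 3 higher and 5 lower, and all genes 1987 higher and 1993 lower. The 10 genes had 208 counts or more per library, and precision was limited by 3 libraries per group.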
